A study of Homo sapiens with 18 samples.

Results

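MYC and 31 genes of ribosome biogenesis were followed in A549 cells, a human lung adenocarcinoma line of wild-type genotype per the labels, kept without treatment or in 5 mM sodium propionate (SP), the salt of a short-chain fatty acid. The 32 genes were picked by symbol from the 61541 genes listed in the deposited count tables, all 32 were found, and all 32 passed the filter on low counts. They comprise MYC itself, 3 subunits of RNA polymerase I, 4 proteins of small nucleolar ribonucleoproteins, 5 nucleolar chaperones and regulators, 9 factors of the 40S subunit and 10 factors of the 60S subunit. Untreated cells after 24 h were the control for 3 h and 24 h of SP, and untreated cells after 3 days were the control for 3 and 12 days of SP, with 3 libraries in each of the 6 groups. The study asked with these libraries how SP changes the transcriptome of lung cancer cells over time. There was no 3 h and no 12 days control, so in those comparisons SP and time in culture cannot be told apart. All cells came from 1 established line grown in the same serum-containing medium. Whether each replicate number marks a separate culture is not stated beyond the study's mention of biological replicates.

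Ribosome production starts in the nucleolus, where RNA polymerase I transcribes the ribosomal DNA into a long precursor. Small nucleolar ribonucleoproteins modify that precursor, the small subunit processome folds and cleaves it towards the 40S subunit, and a series of assembly factors that includes the PES1, BOP1 and WDR12 complex builds the 60S subunit. MYC is a transcription factor that binds E-box sequences with its partner MAX, and genes of this pathway are among its best known targets in proliferating cancer cells.

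The total of reads on genes ranged from 14187401 to 43765330 over the 18 libraries. Levels are given as CPM, the count of a gene scaled to a fixed library size after TMM scaling, so a change in the total RNA of a cell cannot be seen in them. In bulk RNA, less transcript per cell and fewer cells that carry it cannot be told apart. A gene passed the test at an adjusted p under 0.05 (edgeR's quasi-likelihood test with Benjamini-Hochberg adjustment over all genes tested). Libraries of the same group differed by more than sampling noise in every pair, and 2 such patterns touch these genes. In the SP 12 days group, replicate 3 had the lowest CPM of its group for 31 of the 31 genes other than MYC. In the second table, replicate 2 was the lowest of its group for 23 of them in the 24 h control, 24 at SP 3 h and 27 at SP 24 h. Of the marker lists, the epithelial genes (5 of 5 tested, among them KRT8, KRT18 and CDH1) had a summed CPM of 6000 to 8460 in the controls and at SP 3 h and of 11000 to 15400 at the other SP times. Among 6 leukocyte markers CD3E had no read in any library, and the list summed to between 2.89 and 6.17 CPM. The 5 endothelial markers summed to between 0.494 and 3.07 CPM. The 6 fibroblast markers summed to 6.67 to 22.1 CPM in the controls and 18.7 to 90.4 CPM with SP, mostly from COL1A1, while COL1A2 and DCN were at or near 0. The 7 alveolar type II markers were carried by ABCA3 (group means of 97.3 to 199 CPM), with SFTPC below 1 CPM in every group mean. The part of these markers in the results was not tested.

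MYC rose with SP at 3 and 12 days, by 41.1% and 59.5%. MYC (ENSG00000136997, chromosome 8, 127735434 to 127742951, plus strand, GRCh38) had 72.4, 70.9 and 80.03 CPM in the 3 libraries of the 3 days control. SP 3 days libraries held 106, 109.7 and 99.1 CPM, and SP 12 days libraries 123, 134 and 99.7 CPM. Every SP library at both times lay above every control library. The log2 fold change reached 0.50 ± 0.101 (SE) after 3 days (adjusted p = 7.50e-04) and 0.67 ± 0.101 at 12 days (adjusted p = 4.55e-05). The difference between 12 and 3 days of SP was 0.18 ± 0.1 on the log2 scale and did not pass (adjusted p = 0.310). In the second table, the 24 h control held 123, 111 and 183 CPM, SP 3 h 179.5, 170.2 and 159 CPM, and SP 24 h 161, 140.4 and 173 CPM. Replicate 3 of this control lay above all 6 SP libraries and the other 2 control libraries lay below all of them. The log2 fold change was 0.28 ± 0.177 at 3 h (adjusted p = 0.373) and 0.18 ± 0.177 at 24 h (adjusted p = 0.456), and without replicate 3 of the control MYC passed at both times, at 0.53 and 0.43. Exons of MYC share 194 bp with CASC11, whose reads amounted to 0.077% to 0.276% of those of MYC in each group.

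**Figure D1:**
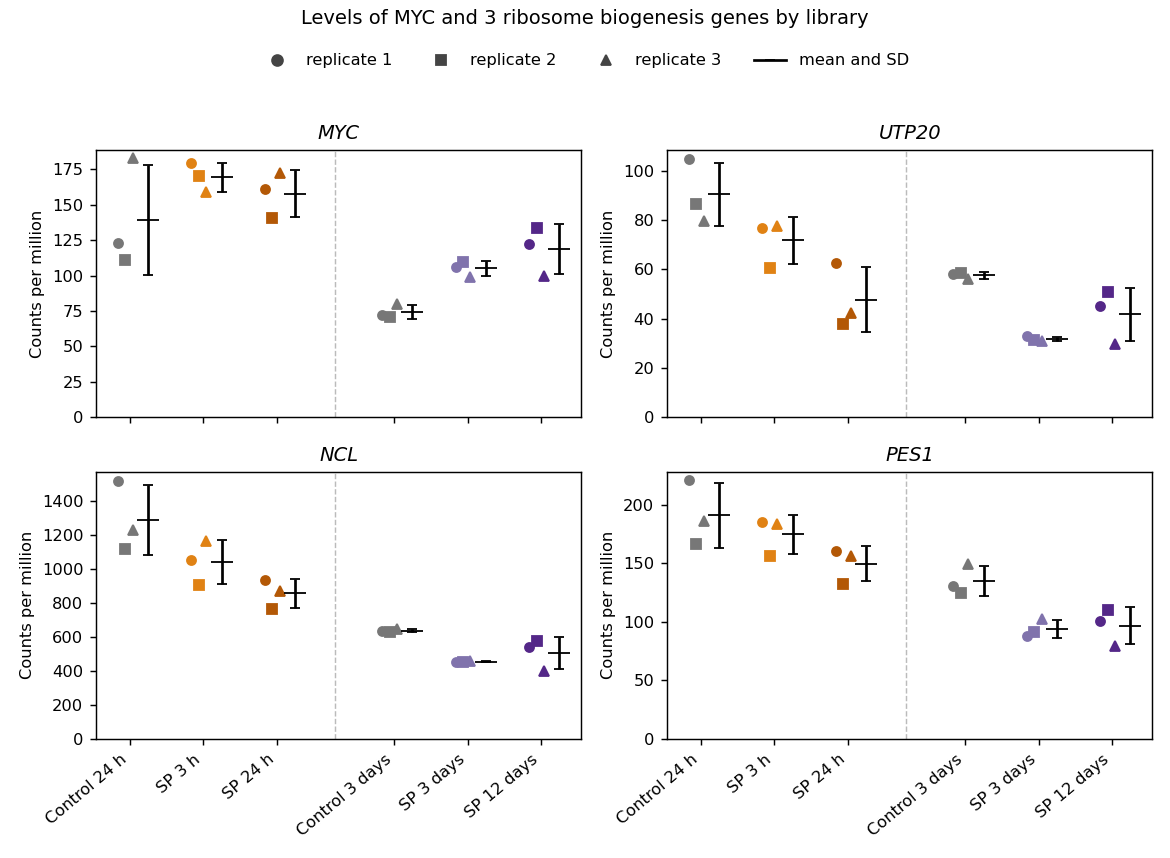
Levels of MYC, UTP20, NCL and PES1 in CPM (linear axis from 0) in the 18 libraries, with each library as a symbol by replicate number and the mean and SD of each group (n = 3) beside it; the dashed line parts the 2 tables, each with its own control. MYC lies higher in all 6 SP libraries of the right-hand table than in its 3 control libraries, whereas UTP20, NCL and PES1 lie lower there.

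Of the 32 genes, 10 were lower at 24 h, 17 at 3 days and 10 at 12 days, and none passed at 3 h. At 3 days 17 genes were lower and 1, MYC, was higher, where 23.3% of all genes tested were lower and 25.2% higher. At 24 h 10 genes were lower and 0 were higher, against 12.0% and 16.8% of all genes tested, and the 17 genes with an unadjusted p under 0.05 all had a negative log2 fold change. At 12 days 10 genes were lower and again MYC alone was higher, against 23.4% and 26.4%. The share of the 32 genes that was lower was 53.1% at 3 days, 31.2% at 24 h and 31.2% at 12 days, the last of these near its background. The median log2 fold change of the 32 genes was −0.29 at 3 days, −0.42 at 24 h and −0.08 at 12 days, where the medians of all genes tested were −0.024, −0.010 and −0.004. SP 24 h and SP 3 days have separate controls. At a stricter limit, an adjusted p under 0.0001 and a change of at least 2-fold as used in the study, 0 of the 32 genes were called at any time, where 6.58% of all genes were called higher and 1.86% lower at 3 days, 6.88% and 2.23% at 12 days, 0.622% and 0.0633% at 24 h and 0% at 3 h.

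In the second table the deviations of same-numbered libraries of SP 24 h and its control had correlations of 0.499, 0.170 and 0.504. Libraries of different numbers reached 0.175 between these groups and 0.576 between SP 3 h and this control, so the pairing is uncertain. With the replicate number as a block 17 of the 32 genes were lower at 24 h, where 12.4% of all genes were. The block added DKC1 (adjusted p = 0.00713), PA2G4 (0.0205), PES1 (0.0214), RRS1 (0.0285), NOP56 (0.0428), NOP14 (0.0431) and POLR1C (0.0455), and 0 calls were lost. The block was fitted to all 9 libraries of the table, so SP 3 h took part in it too. Values at 24 h are from the fit without the block unless it is named. Within the numbered pairs, the median log2 difference of the 31 genes other than MYC was −0.49, −0.34 and −0.38, and 27, 27 and 30 of them were lower with SP. The count of 10 without the block became 4 without replicate 1 of the control, 2 without replicate 2 of SP 24 h and 3 without replicate 3 of SP 24 h. In these fits 8.15%, 5.22% and 6.12% of all genes were lower, and the median log2 fold change of the 32 genes was −0.29, −0.31 and −0.41. At 3 days the count became 11 without replicate 1 of SP 3 days (18.9% of all genes), and at 12 days 5 without replicate 3 of the control (20.4% of all genes).

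**Figure D2:**
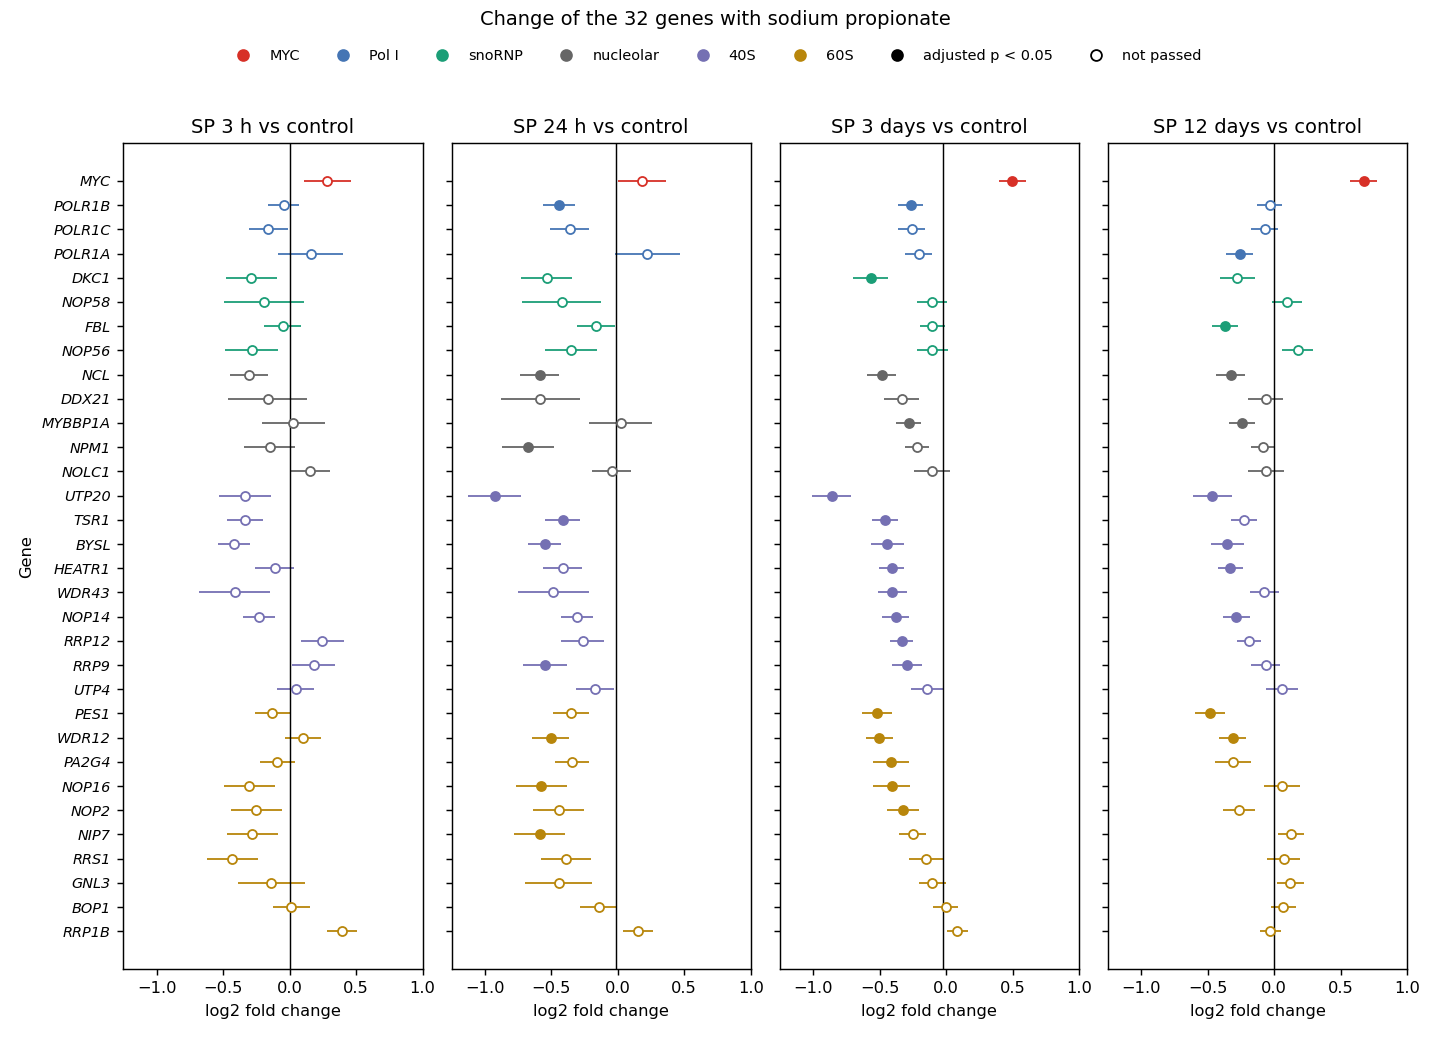
The log2 fold change of the 32 genes against the control of their table at the 4 times, with bars of 1 SE from edgeR, filled points for genes that passed at an adjusted p under 0.05 and a vertical line at the median of all genes tested. MYC lies to the right at 3 and 12 days, most 40S and 60S factors lie to the left at 24 h and 3 days, and at 12 days many points lie near the line.

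Of the 9 factors of the 40S subunit, 8 were lower at 3 days, 4 at 24 h (5 with the block) and 4 at 12 days, with a median log2 fold change of −0.40, −0.42 and −0.23. UTP20, a very large protein of the small subunit processome (ENSG00000120800, chromosome 12, 101280105 to 101386618), changed most among the 32 genes at both 24 h and 3 days. It had 58.3, 58.4 and 55.9 CPM in the 3 days control, 32.9, 31.3 and 31.1 CPM at SP 3 days, and 45.0, 50.6 and 29.6 CPM at SP 12 days. All 6 SP libraries lay below the 3 controls, and replicate 3 of SP 12 days was as low as the 3 days libraries. UTP20 changed by −0.86 ± 0.147 (log2) at 3 days (adjusted p = 2.98e-04), a fall of 44.9%, and −0.47 ± 0.145 at 12 days (adjusted p = 0.0161). In the second table UTP20 had 104.8, 86.7 and 79.8 CPM in the control and 62.7, 37.9 and 42.4 CPM at SP 24 h. These groups did not overlap either, and the change was −0.93 ± 0.198 on the log2 scale (adjusted p = 0.00795). At 12 days UTP20 did not pass without replicate 2 of the control (adjusted p = 0.0525).

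BYSL, the bystin protein needed late in 40S maturation (ENSG00000112578, chromosome 6, 41921499 to 41933046), was lower at 24 h, 3 days and 12 days. It had 30.1, 30.0 and 32.2 CPM in the 3 days control, 20.7, 22.9 and 24.4 CPM at SP 3 days, and 24.9, 28.1 and 19.4 CPM at SP 12 days. None of the SP libraries reached the lowest control. BYSL changed by −0.44 ± 0.122 (log2) at 3 days (adjusted p = 0.00707), −0.35 ± 0.121 at 12 days (adjusted p = 0.0235) and −0.55 ± 0.123 at 24 h (adjusted p = 0.00979). At 12 days it did not pass without replicate 3 of the control (adjusted p = 0.0761). TSR1, a GTPase-like factor of the pre-40S particle, was lower at 24 h and 3 days (−0.42 and −0.46 on the log2 scale), and HEATR1 and NOP14, components of the processome, at 3 and 12 days (−0.41 and −0.33 for HEATR1, −0.38 and −0.29 for NOP14). WDR43 and RRP12 were lower at 3 days (−0.40 and −0.34), and RRP9, a protein of the U3 ribonucleoprotein, at 24 h and 3 days (−0.55 and −0.29). RRP9 did not pass without any 1 of 3 libraries at 24 h or any 1 of 5 at 3 days. UTP4 did not pass in any comparison with control. HEATR1 shares exons with LGALS8, whose reads reach 70.1% of its own, so that its counts are uncertain.

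Of the 10 factors of the 60S subunit, 3 were lower at 24 h (6 with the block), 5 at 3 days and 2 at 12 days, with a median log2 fold change of −0.42, −0.29 and 0.01. PES1 (ENSG00000100029, chromosome 22, 30576625 to 30607083), the pescadillo subunit of the PES1, BOP1 and WDR12 complex, had 131, 124 and 149.6 CPM in the 3 days control, 87.8, 91.5 and 103 CPM at SP 3 days, and 101, 109.8 and 79.1 CPM at SP 12 days. Its groups did not overlap at either time. PES1 fell by 30.3% at 3 days (log2 −0.52 ± 0.113, adjusted p = 0.00144) and by 28.4% at 12 days (−0.48 ± 0.113, adjusted p = 0.00238), and gave −0.35 ± 0.133 at 24 h (adjusted p = 0.0749, and 0.0214 with the block).

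WDR12 (ENSG00000138442, chromosome 2, 202874261 to 203014798) had 42.6, 45.7 and 41.2 CPM in the 3 days control, 30.3, 31.02 and 30.2 CPM at SP 3 days and 38.9, 36.1 and 29.4 CPM at SP 12 days. Control libraries lay above all SP libraries. WDR12 changed by −0.50 ± 0.102 (log2) at 3 days (adjusted p = 7.68e-04), −0.31 ± 0.101 at 12 days (adjusted p = 0.0166) and −0.51 ± 0.136 at 24 h (adjusted p = 0.0216). At 24 h it did not pass after a correction for GC content and transcript length within each library (−0.26, adjusted p = 0.206), nor without replicate 2 or 3 of SP 24 h. At 12 days it did not pass without replicate 2 of the control (adjusted p = 0.0598). Reads of NBEAL1, which shares exons with WDR12, reached 84.3% of its own. BOP1, the remaining subunit of that complex, gave −0.003, −0.14 and 0.07 on the log2 scale at 3 days, 24 h and 12 days and passed at none, but with the same GC and length correction it was lower at 24 h (−0.72, adjusted p = 0.00839) and 3 days (−0.39, adjusted p = 0.00510).

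NOP16 and NIP7, which act in 60S assembly, were lower at 24 h (−0.57 ± 0.191, adjusted p = 0.0486, and −0.59 ± 0.194, adjusted p = 0.0475). NOP16 had 76.3, 52.5 and 65.9 CPM in the 24 h control and 50.4, 33.9 and 46.7 CPM at SP 24 h. The highest SP library lay just below the lowest control. NIP7 had 121.9, 74.1 and 98.6 CPM in the control and 74.8, 54.1 and 67.2 CPM at SP 24 h, and the groups overlapped. Both calls at 24 h were close to the limit, since NIP7 did not pass without any 1 of 6 libraries and NOP16 without any 1 of 5, and NIP7 gave −0.20 after the GC and length correction (adjusted p = 0.400). NOP16 was lower at 3 days too (−0.41 ± 0.138, adjusted p = 0.0229), though not after that correction (−0.26, adjusted p = 0.162). Reads of HIGD2A, which shares exons with NOP16, and of COG8, which shares exons with NIP7, reached 174% and 59.1% of their own, so both counts are uncertain. NOP2, an rRNA methyltransferase, and PA2G4 were lower at 3 days (−0.33 and −0.42). NOP2 shares 2550 bp of exon with another annotated gene, so its counts are uncertain. RRP1B and GNL3 passed in no comparison with control, and RRS1 passed at 24 h with the block alone.

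Among nucleolar chaperones and regulators, NCL was lower at 24 h, 3 days and 12 days. NCL encodes nucleolin, an abundant protein that binds nascent pre-rRNA (ENSG00000115053, chromosome 2, 231453531 to 231483641). It had 635, 629 and 646 CPM in the 3 days control, 456, 454 and 457 CPM at SP 3 days and 541, 578 and 401 CPM at SP 12 days. The 3 days libraries lay within a narrow range in both groups, and no SP library reached a control. NCL changed by −0.48 ± 0.108 (log2) at 3 days (adjusted p = 0.00167), −0.33 ± 0.108 at 12 days (adjusted p = 0.0189) and −0.59 ± 0.144 at 24 h (adjusted p = 0.0146). Without replicate 3 of the control it did not pass at 12 days (adjusted p = 0.0525), and without replicate 2 of SP 24 h it did not pass at 24 h (adjusted p = 0.0678).

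NPM1, nucleophosmin, a histone and ribosome chaperone of the nucleolus, had 1905, 1267 and 1297 CPM in the 24 h control and 1051, 774 and 971 CPM at SP 24 h. The groups did not overlap, and the log2 fold change was −0.68 ± 0.193 (adjusted p = 0.0274). It did not pass without replicate 1 of the control, replicate 2 of SP 24 h or replicate 3 of SP 24 h. It gave −0.21 with an adjusted p = 0.215 after the GC and length correction, and 49 annotated pseudogenes make its counts uncertain, since how multimapping reads were treated is not stated. At 3 days NPM1 gave −0.22 ± 0.090 (adjusted p = 0.0545). MYBBP1A was lower at 3 and 12 days (−0.28 and −0.24), while the RNA helicase DDX21 and NOLC1 passed at no time.

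Of the 3 polymerase subunits 1 was lower at each of 24 h, 3 days and 12 days (2 at 24 h with the block), and of the 4 proteins of small nucleolar ribonucleoproteins 0, 1 and 1 (2 at 24 h with the block). POLR1B, the second-largest subunit of RNA polymerase I, had 71.2, 54.5 and 60.5 CPM in the 24 h control and 45.7, 44.3 and 47.0 CPM at SP 24 h, without overlap (−0.44 ± 0.118, adjusted p = 0.0209). It was also lower at 3 days (−0.27 ± 0.096, adjusted p = 0.0302). POLR1B did not pass without any 1 of 4 libraries at 24 h or any 1 of 5 at 3 days, nor with DESeq2 at 3 days. POLR1A, the largest subunit, was lower at 12 days (−0.26 ± 0.102, adjusted p = 0.0464), though not with DESeq2 or without any 1 of 4 libraries. POLR1C, which RNA polymerase III shares, passed at 24 h with the block alone, and its counts are uncertain, since reads of XPO5 and YIPF3, which share exons with it, reached 313% and 427% of its own. DKC1, dyskerin, the pseudouridine synthase of box H/ACA particles (ENSG00000130826, chromosome X, 154762742 to 154777689), had 115, 113 and 125 CPM in the 3 days control and 76.6, 74.8 and 86.9 CPM at SP 3 days. These groups were well apart, and DKC1 fell by 32.5% (log2 −0.57 ± 0.134, adjusted p = 0.00318). At 12 days its libraries held 104, 114.5 and 72.7 CPM and overlapped with the control (−0.28 ± 0.133, adjusted p = 0.0966).

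FBL, fibrillarin, the methyltransferase of box C/D particles, behaved in another order. It had 329, 283 and 359 CPM in the 3 days control, 289.9, 298 and 317 CPM at SP 3 days and 244, 273 and 234 CPM at SP 12 days. Only the 12 days libraries lay below all controls, with a log2 fold change of −0.37 ± 0.095 (adjusted p = 0.00405), against −0.10 ± 0.095 at 3 days (adjusted p = 0.393). The difference between 12 and 3 days was −0.27 ± 0.095 for FBL (adjusted p = 0.0930). Of its partners in the box C/D particle, NOP58 passed at no time and NOP56 at 24 h with the block alone. NOP56, NOP58, DKC1, NCL, WDR43, TSR1 and GNL3 carry 25 snoRNA genes inside their own genes, and 21.9% of the 32 genes are such hosts against 1.28% of protein-coding genes in the annotation. Reads of these short RNAs were not analysed here.

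The level of the 32 genes spanned a wide range. The exon length used is that of all annotated exons of a gene merged over its transcripts. It was 8311 bp for NPM1 and 2138 bp for FBL, where the transcripts annotated as canonical have 1320 and 1125 bp. Places in the order depend on the length used, and the order by canonical transcript was not computed. Per kilobase of exon, FBL (151 ± 18.0 CPM per kb, SD, n = 3), NPM1 (86.3 ± 3.80) and NCL (71.4 ± 0.99) led in the 3 days control, MYC stood at place 22 (12.2 ± 0.803), and NOP2 was last (2.23 ± 0.150). NOP2 shares 2550 of its 4687 bp of exon with another annotated gene, so its level and its place are uncertain. The 24 h control had the same 5 genes at the top in the same order, FBL, NPM1, NCL, PA2G4 and NOLC1. There FBL (222 ± 40.3 CPM per kb) and NPM1 (179 ± 43.3), and NPM1 and NCL (144.5 ± 23.2), differed by less than the SD of NPM1, so these neighbours in the order do not differ beyond their spread. Levels of the 2 controls come from tables made separately and were not compared.

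At 3 h of SP the 32 genes gave a median log2 fold change of −0.14, against 0.003 for all genes, and 0 passed, where 7.39% of all genes were higher and 4.11% lower. Before adjustment 4 genes had a p under 0.05, BYSL, TSR1 and RRS1 with lower levels than the control and RRP1B with higher ones. DESeq2 gave 1 gene, BYSL, lower, where 5.61% of all genes were. RRP1B, a regulator of pre-rRNA processing, had 129.7, 117 and 152 CPM in the control and 179.0, 182 and 163.5 CPM at SP 3 h. Its groups did not overlap, at 0.39 ± 0.112 on the log2 scale (adjusted p = 0.0524). BYSL had 55.0, 41.9 and 49.9 CPM in the control and 37.1, 36.2 and 36.7 CPM at SP 3 h, also without overlap, at −0.42 ± 0.123 (adjusted p = 0.0589). TSR1 gave −0.33 ± 0.135 (adjusted p = 0.161). In all, 3 genes lay below and 1 above the control without overlap at 3 h, where 11.7% and 15.6% of all genes did.

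Between 3 h and 24 h of SP, 3 of the 32 genes fell, where 8.40% of all genes did. RRP9 fell by 39.6%, from 56.5, 48.7 and 57.3 CPM to 38.4, 25.3 and 34.5 CPM (log2 −0.73 ± 0.163, adjusted p = 0.0141). It was the gene of these 3 that kept its call in every fit that left out a library (adjusted p at most 0.0497). WDR12 fell from 60.9, 52.2 and 65.7 CPM to 41.8, 35.6 and 39.95 CPM (−0.61 ± 0.136, adjusted p = 0.0140). POLR1B fell from 56.0, 59.6 and 64.8 CPM to 45.7, 44.3 and 47.0 CPM (−0.40 ± 0.118, adjusted p = 0.0414). None of these 3 genes had overlapping libraries between the times. WDR12 did not pass without replicate 3 of SP 3 h or replicate 2 of SP 24 h, and POLR1B not without any 1 of 6 libraries.

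At 12 days of SP, 2 of 3 libraries had a median over the genes other than MYC near the control level, and the third did not. The median over the 31 genes of the log2 ratio to the control mean was −0.27, −0.32 and −0.32 in the 3 libraries of SP 3 days. For SP 12 days it was −0.06 and −0.04 in replicates 1 and 2 and −0.39 in replicate 3, while the control libraries themselves lay at −0.02, −0.04 and 0.06. By this median replicate 3 of SP 12 days lay below the SP 3 days libraries and the other 2 libraries near the control. Single genes differed, as NIP7 had 51.6 CPM in replicate 3 and at most 47.8 CPM at SP 3 days. The summed epithelial markers were 11000 CPM in replicate 3 and 14600 and 15400 CPM in the other 2, and the fibroblast markers 64.6 against 40.7 and 35.9 CPM. Their part in the result was not tested. In the test of 12 days against 3 days, 2 genes were higher and 0 lower, where 4.46% and 3.65% of all genes were. NOP16 went from 22.9, 23.8 and 24.2 CPM to 33.1, 40.2 and 24.9 CPM (0.47 ± 0.137, adjusted p = 0.0494). NIP7 went from 47.8, 47.3 and 39.8 CPM to 61.5, 62.3 and 51.6 CPM (0.38 ± 0.101, adjusted p = 0.0320). NOP16 did not pass without any 1 of 8 libraries and NIP7 without any 1 of 6. Without replicate 3 of SP 12 days, 21 of the 32 genes were higher than at 3 days and 1 was lower, where 13.6% and 14.5% of all genes were. In that fit 6 were higher than in the control and 7 were lower, where 27.3% and 27.6% of all genes were. Both 12 days and 3 days values rest on the same 3 control libraries. Side by side, 29 of the 32 genes had a higher log2 fold change at 12 than at 3 days, FBL, POLR1A and RRP1B being the others.

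**Figure D3:**
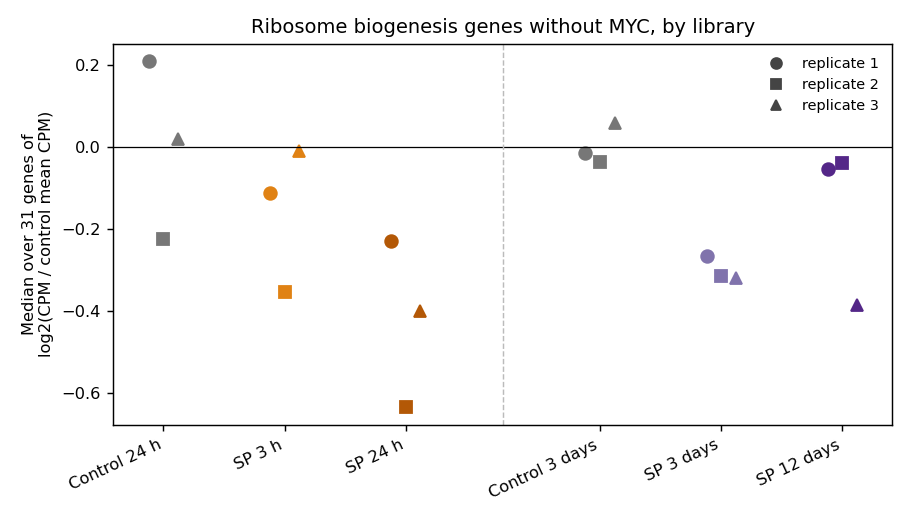
For each of the 18 libraries, the median over the 31 genes other than MYC of the log2 ratio of its CPM to the mean CPM of the control group of the same table (0 is the control mean, symbols give the replicate number). SP 3 days libraries lie between −0.321 and −0.266, 2 SP 12 days libraries lie near 0 and the third at −0.387, and in the second table the 24 h control spans −0.225 to 0.208 and SP 24 h −0.636 to −0.231.

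Genes that fell at 24 h and at 3 days, measured with separate controls, overlapped in BYSL, NCL, NOP16, POLR1B, RRP9, TSR1, UTP20 and WDR12. These 8 genes are 80% of the 10 lower at 24 h and 47.1% of the 17 lower at 3 days. Among the 16654 genes tested in both tables, 8.46% were lower at both times, against 25% of the 32 genes. Values of both comparisons were below 0 for 28 of the 32 genes. Across the 32 genes the log2 fold changes at 24 h and 3 days had a Pearson correlation of 0.70, and across all genes tested 0.75, as a description since genes are not independent replicates. BYSL, NCL, UTP20 and WDR12 were lower at 12 days too. Of the 31 genes other than MYC, 10 did not pass in any comparison with control, namely BOP1, DDX21, GNL3, NOLC1, NOP56, NOP58, POLR1C, RRP1B, RRS1 and UTP4, and NOP56, POLR1C and RRS1 were lower at 24 h with the replicate block. With that block at 24 h and the fit without it at 3 days, 12 genes were lower at both times, 70.6% of the 17 lower at each of them. In these fits 12.4% and 23.3% of all genes were lower, and the share of all genes lower in both was not counted. Without a test, SP libraries lay entirely below the control for 24 of the 32 genes at 3 days, 12 at 24 h and 13 at 12 days, where 30.7%, 19.8% and 27.3% of all genes did.

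Promoters of these genes were searched for CACGTG, the E-box that MYC and MAX bind best and whose reverse complement is itself. RefSeq windows of 300 bases on GRCh38.p14, from 250 before to 50 after the start given by RefSeq, were used for 25 of the 32 genes. The first listed window was used where a gene had more than 1. For PES1, NCL and WDR12 this start lies inside the gene span given above, which comes from GENCODE. An E-box was present in 10 of these 25 windows (40%), in FBL, MYBBP1A, UTP4, WDR43, UTP20, NOP14, RRP9, BYSL, PES1 and NOP2. Of 15843 windows of protein-coding genes, 8.88% held it. In the further lists described below, it was present in 35.3% of 34 windows of snoRNP and 40S factors and 25.7% of 35 windows of 60S factors. For cytosolic ribosomal protein genes it was 4.8% of 63 windows. The 100 bases around the start are shown for 4 genes that hold it and fell, and for NCL and WDR12, which fell as well and have no E-box in the window, 5′ to 3′ on the strand of the gene with the E-box in capitals.
UTP20 (chr12:101280055-101280154, plus strand): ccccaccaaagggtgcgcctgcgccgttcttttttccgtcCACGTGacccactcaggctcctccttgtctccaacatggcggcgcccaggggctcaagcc
BYSL (chr6:41921449-41921548, plus strand): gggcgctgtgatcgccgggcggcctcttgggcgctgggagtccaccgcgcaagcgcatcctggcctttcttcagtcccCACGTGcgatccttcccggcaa
PES1 (chr22:30591861-30591960, minus strand): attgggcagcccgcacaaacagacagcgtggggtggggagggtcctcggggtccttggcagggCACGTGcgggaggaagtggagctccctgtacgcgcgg
RRP9 (chr3:51941855-51941954, minus strand): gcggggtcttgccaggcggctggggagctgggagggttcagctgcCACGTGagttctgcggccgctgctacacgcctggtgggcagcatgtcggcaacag
NCL (chr2:231464435-231464534, minus strand): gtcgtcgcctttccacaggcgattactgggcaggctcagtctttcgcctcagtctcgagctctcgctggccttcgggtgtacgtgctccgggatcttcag
WDR12 (chr2:202911624-202911723, minus strand): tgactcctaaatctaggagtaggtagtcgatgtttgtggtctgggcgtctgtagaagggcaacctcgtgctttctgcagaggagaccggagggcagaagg

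The E-box lay within 50 bases of the start in all 10 windows that held it, from 16 bases before the start in UTP4 to 36 after it in NOP2. At 3 days 8 of the 10 genes with an E-box were lower and 8 of the 15 without, at 12 days 6 and 4, and at 24 h 3 and 7. Among all tested genes with a window, 28.9% of those with an E-box and 25.7% of those without were lower at 3 days, 27.0% and 25.1% at 12 days, and 17.2% and 14.0% at 24 h. At 24 h the share was smaller in genes of the set with an E-box (30.0%) than without (46.7%). The median log2 fold change at 3 days was −0.35 in genes of the set with an E-box and −0.33 in those without. A match is a description of the letters and not evidence of binding. Windows of MYC, BOP1 and RRS1 were left out of the search, and NOP58, NOLC1, RRP12 and RRP1B had no window in the RefSeq set. The share of windows with an E-box in the set therefore does not cover these genes, MYC itself among them.

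Other genes of the pathway, taken from lists written from general knowledge, are given by the number that passed, beside the 12.0%, 23.3% and 23.4% of all genes that were lower at 24 h, 3 days and 12 days of SP. Of 12 further factors of RNA polymerase I transcription, 4 were lower at 24 h, 4 at 3 days and 4 at 12 days, and 0 were higher. UBTF, the upstream binding factor that holds ribosomal DNA in an open state, was lower at all 4 times. Its mean CPM was 227 in the 24 h control, 143 at SP 3 h and 156 at SP 24 h, while the first table had means of 168 (control), 92.5 (SP 3 days) and 98.7 (SP 12 days). The log2 fold change of UBTF was −0.67 ± 0.113 at 3 h (adjusted p = 0.00568), −0.54 ± 0.113 at 24 h (adjusted p = 0.00681), −0.86 ± 0.085 at 3 days (adjusted p = 6.68e-07) and −0.77 ± 0.084 at 12 days (adjusted p = 2.01e-06), and SP and control libraries never overlapped. RRN3, the initiation factor that recruits RNA polymerase I, was lower at 24 h, 3 days and 12 days (−0.51, −0.80 and −0.57) and gave −0.07 at 3 h (adjusted p = 0.825). POLR1G, a further subunit, was higher at 3 h (0.62, adjusted p = 0.0321) and lower at 24 h (−0.75, adjusted p = 0.00758) and 3 days (−0.50, adjusted p = 0.0160).

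Among 41 further snoRNP and 40S factors, 13 were lower at 24 h, 19 at 3 days and 10 at 12 days, with 0, 0 and 4 higher. The largest falls included DDX10, an RNA helicase (−0.998 at 24 h and −0.60 at 3 days), and EMG1, an rRNA methyltransferase (−0.79 and −0.59), and PNO1, a factor of pre-40S maturation, was lower at 24 h and 3 days (−0.82 and −0.49). Of 39 further 60S factors, 11, 23 and 13 were lower and 0, 2 and 2 higher. EIF6 and ZNF622, which act on the free 60S subunit late and in the cytoplasm, were the 2 higher genes at both 3 and 12 days. LSG1, a GTPase of the same late stage, was lower at 24 h, 3 days and 12 days (−0.32, −0.66 and −0.36). BRIX1 and MRTO4, which act in 60S assembly, were lower at 24 h and 3 days (−0.74 and −0.52 for BRIX1, −0.75 and −0.43 for MRTO4). With these lists the medians at 3 days were −0.25 and −0.34, against −0.024 for all genes. Without replicate 2 of SP 24 h, 3 of the snoRNP and 40S factors and 2 of the 60S factors were lower at 24 h. In that fit the share of all genes that was lower was 5.22%, against 12.0% with all libraries.

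Of the 79 cytosolic ribosomal protein genes, 24 were lower and 0 higher at 24 h, with 78 of 79 below 0 and a median of −0.40. At 3 days 7 were lower and 7 higher with a median of 0.04, and at 12 days 5 were lower and 9 higher with a median of 0.03. Without replicate 2 of SP 24 h, 2 were lower at 24 h, where 5.22% of all genes were. At 3 h 0 passed. RPL30 and RPL27A were lower at 24 h (−0.71 and −0.63), 3 days (−0.43 and −0.24) and 12 days (−0.28 and −0.22), RPL10 was lower at 24 h and 12 days (−0.72 and −0.33), and RPL27 rose at 3 and 12 days (0.35 and 0.40). After the GC and length correction 35 of the 79 were higher and 3 lower at 3 days, 34 higher and 4 lower at 12 days, and 0 higher and 16 lower at 24 h. Ribosomal protein genes and RRN3 have copies elsewhere in the genome, so their counts are uncertain.

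Other well known MYC target genes (20 outside ribosome production) were lower in 7 cases at 24 h, 8 at 3 days and 4 at 12 days, with 0, 0 and 1 higher. At 12 days this is 20%, below the 23.4% of all genes. Without replicate 2 of SP 24 h 0 were lower at 24 h, where 5.22% of all genes were, and at 3 h 0 passed. CAD, which starts pyrimidine synthesis, was lower at 3 and 12 days (−0.63 and −0.76), as was SHMT2 of mitochondrial folate metabolism (−0.57 and −0.61). HSPD1 and C1QBP were lower at 24 h and 3 days. In the MYC network itself, 9 of 10 genes were tested. MYCL, a paralog of MYC, was higher at all 4 times (2.01, 1.51, 1.01 and 0.63 on the log2 scale in order of time), from a mean of 1.52 CPM in the 24 h control to 6.14 CPM at SP 3 h. MXI1, which competes with MYC for MAX, was also higher at all 4 times (1.51, 0.92, 0.69 and 0.59). MXD1, of the same family, was higher at 3 h (1.67, adjusted p = 0.00166), as were MAX (0.60) and MXD3 (0.49). At 24 h and 3 days MXD1, MAX and MXD3 did not pass. At 12 days MXD3 was lower (−0.90, adjusted p = 2.45e-06), MAX was higher (0.24, adjusted p = 0.0378) and MXD1 did not pass. MNT, a further antagonist, was lower at 3 and 12 days (−0.35 and −0.42) and gave 0.51 and 0.67 without passing at 3 h and 24 h. EIF6, ZNF622, RPL27, SHMT2, MXD1, MAX and MXD3 were chosen after their values were seen.

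**Figure D4:**
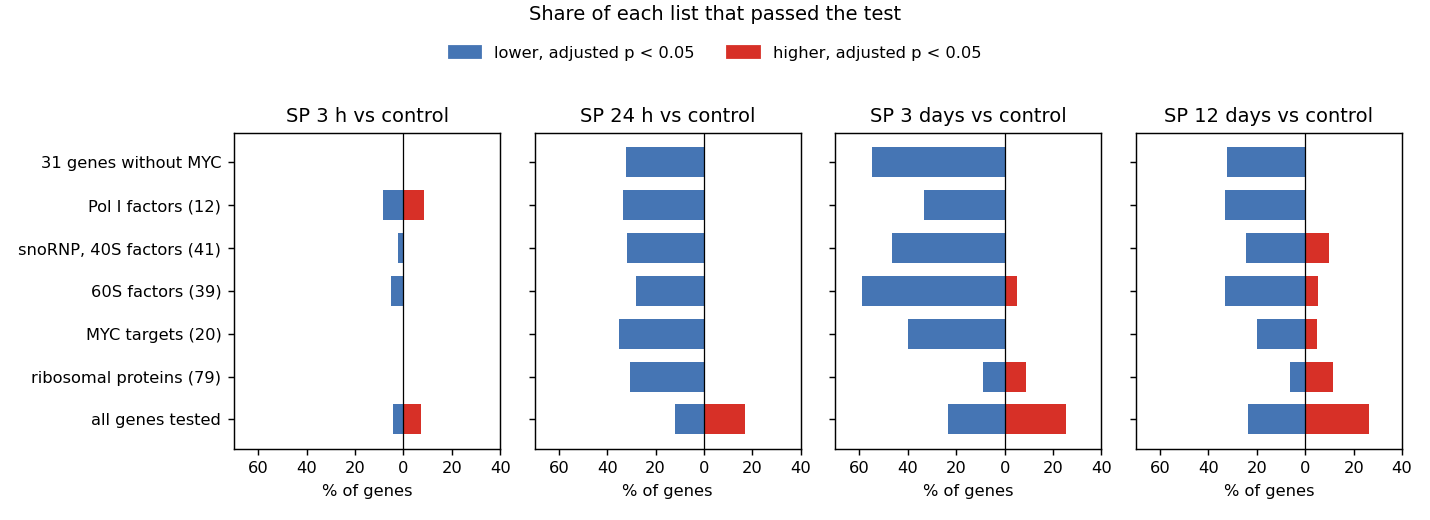
Share of each list (in % of its genes tested) that was lower (left, blue) or higher (right, red) at an adjusted p under 0.05 in the 4 comparisons with control, with all genes tested in the bottom row. The 31 genes without MYC, the Pol I, snoRNP, 40S and 60S factors and the MYC targets have long left bars at 24 h and 3 days, and the ribosomal proteins have one at 24 h.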

How the data were processed

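The 18 RNA-seq libraries of A549 cells, 3 per group, were analysed from 2 deposited tables that hold raw counts for Ensembl genes. Per the study's methods the authors used NEBNext Ultra library chemistry and paired-end sequencing, STAR 2.7.9a alignment to GRCh38 and featureCounts, and they deposited the counts without normalization. Strandedness and the treatment of multimapping reads are not given in the sources used here, so genes that share exons or have pseudogenes carry uncertain counts.

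Counts were analysed with edgeR 4.0.16 in R 4.3.3. Genes were kept by filterByExpr (minimum count 10), which left 17775 (first table) and 17377 (second table). Each table was fitted with its 9 libraries in 1 robust quasi-likelihood model with TMM scaling, whose factors were 0.957 to 1.037, with Benjamini-Hochberg adjustment across all tested genes. Tables were not compared with each other. Depth was 14187401 to 43765330 reads, and the common biological coefficient of variation was 0.0996 in the first and 0.199 in the second table, which sets the precision. Alternatives were DESeq2 1.42.0, RLE factors, no filter, the 2 groups alone, the replicate number as a block, removal of trends with GC content and transcript length, leaving out each library, and the thresholds of the study. The fit was tested on simulated data with known changes of at least 2-fold. Smaller changes, such as those of the 32 genes, were not simulated.

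Values in every library were given for MYC and, in each comparison with control, for up to 5 genes of the set with the largest absolute log2 fold change among those that passed, or the 3 with the smallest p where fewer than 3 did. POLR1B, WDR12, RRP9 and NIP7 in other comparisons were added after their values were seen. From each further list, up to 3 genes with the largest change at 24 h or 3 days were named. Members and lists were chosen with earlier results of these data known. Gene positions come from GENCODE on GRCh38 and promoters from RefSeq on GRCh38.p14.

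Whether equal replicate numbers mark pairs was checked from the correlation of the libraries' deviations from their group means. SP 24 h and its control gave 0.499, 0.170 and 0.504, each above 0.1. For 24 h a fit with the replicate number as a block is therefore given beside the main fit, which has no block. Different numbers reached 0.175 between these groups, above 0.1 as well, so the pairing is uncertain. Between SP 3 h and the same control different numbers reached 0.576 and 0.519, so a value near 0.5 does not by itself mark a pair. SP 3 h gave −0.086, −0.028 and −0.592, SP 3 days 0.043, 0.033 and 0.162, and SP 12 days −0.010, −0.002 and 0.028 against their controls.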

Additional observations from a re-analysis of the deposited data

Results flagged for a closer look

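Between 12 and 3 days of SP, the test of the difference itself passed for 2 genes of the set, NOP16 (0.467 on the log2 scale, adjusted p = 0.0494 by edgeR, higher than every 3 days library in 3 of 3 libraries) and NIP7 (0.378, adjusted p = 0.0320, also in 3 of 3). NIP7 did not pass without any 1 of 6 libraries and NOP16 without any 1 of 8.

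Between 24 and 3 h of SP it passed for 3 genes, POLR1B (−0.399, adjusted p = 0.0414), RRP9 (−0.727, adjusted p = 0.0141) and WDR12 (−0.608, adjusted p = 0.0140), each lower in 3 of 3 libraries. WDR12 did not pass without replicate 3 of SP 3 h, without replicate 2 of SP 24 h or after the GC and length correction. POLR1B did not pass without any 1 of 6 libraries. In these comparisons SP and time in culture cannot be told apart.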

How the results depend on the processing

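No result reversed. At the thresholds of the study every count of the 32 genes was 0. The counts lower were 17 at 3 days (11 to 22 when leaving out each library in turn, lowest without replicate 1 of SP 3 days), 10 at 12 days (5 to 13, lowest without replicate 3 of the control) and 10 at 24 h (2 to 15, lowest without replicate 2 of SP 24 h and highest without replicate 2 of the control). The highest of these counts went with 29.0% of all genes lower at 3 days, 23.0% at 12 days and 9.56% at 24 h. At 24 h the fit on the 2 groups alone gave 6, where 9.86% of all genes were lower. At 12 days the count higher of 1 was 3 after the GC and length correction, with or without the block, and 1 to 6 when leaving out a library, highest without replicate 3 of SP 12 days. At 3 h the count lower of 0 became 1 with DESeq2, RLE factors or the GC and length correction and 0 to 1 when leaving out a library, and the count higher became 1 with that correction and 0 to 3 when leaving out a library, highest without replicate 3 of the control. At 24 h the count higher was 0 to 1, with 19.7% of all genes higher in the fit that gave 1. At 3 h 5.61%, 4.59% and 6.84% of all genes were lower with DESeq2, RLE factors and the GC and length correction. Without replicate 2 of the control 2.74% were lower. That correction gave 11.2% of all genes higher at 3 h, and the fit without replicate 3 of the control 8.45%. At 12 days the correction gave 28.5% higher, and the fit without replicate 3 of SP 12 days 27.3%.

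From 3 to 12 days of SP the count higher of 2 became 1 with RLE factors, 7 with no filter, 0 with the 2 groups alone and 0 to 21 when leaving out a library, highest without replicate 3 of SP 12 days, and the count lower was 0 to 1. Of all genes, 4.09%, 2.91% and 3.10% were higher with RLE factors, no filter and the 2 groups alone. Without replicate 3 of SP 12 days 13.6% were higher and 14.5% lower. From 3 to 24 h the count lower of 3 became 5 with DESeq2 or the 2 groups alone and 1 to 6 when leaving out a library. In the 2 fits that gave 5 without leaving out a library, 8.92% and 11.8% of all genes were lower, and 9.71% in the fit that gave 6. For MYC, leaving out a library gave 0.140 to 0.531 at 3 h and 0.033 to 0.426 at 24 h, the highest and only passing values without replicate 3 of the control. The cause was not tested.

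With the replicate number as a block, the count lower was 17 at 24 h, 2 at 3 h, and the count higher from 3 to 12 days was 1. In the same order, 12.4%, 4.08% and 5.35% of all genes were called. With the block and the GC and length correction together, chosen after seeing the data, 18 were lower at 24 h, 5 lower and 1 higher at 3 h, 3 higher at 12 days and 7 lower from 3 to 24 h. Of all genes, 17.0% were lower at 24 h in that fit, and 8.19% lower and 12.2% higher at 3 h. At 12 days 28.0% of all genes were higher, and from 3 to 24 h 15.1% were lower. The numbers were taken as possible pairs for 24 h alone, and the main fit there has no block. The block was nevertheless fitted to all 9 libraries of the second table, with SP 3 h among them, whose same-numbered libraries did not deviate together with the control. Elsewhere the samples share only a number. Apart from the counts named above for the block alone, the block moved no count by over 1.5 times. Precision was set by the spread between libraries, larger in the second table, more than by depth.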
